A study of Arabidopsis thaliana with 4 samples.

Results

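The genes described here are 4 Arabidopsis thaliana genes linked to the circadian clock: COR27 (AT5G42900), AT4G33980, known as COR28, AT1G07050, which belongs to the CCT motif family, and GI (AT1G22770). They are 4 of the 13355 genes named on the array, were chosen by name, and each was read by 1 probe set (249174_at, 253322_at, 256060_at and 264211_at in that order). The choice was made with their values in view: the first 3 stood far above wild type on the arrays of both mutants and of the overexpressing line, and GI stood low in as2-1. The differences from wild type are therefore a description, and no test supports them.

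The circadian clock is a feedback loop of transcription factors in which morning genes and evening genes repress each other, so that many transcripts cycle over the day. GI encodes a large evening-phased protein that stabilises clock components and links the clock to flowering under long days. COR27 and COR28 encode small related proteins, first described as cold-regulated, that repress evening clock genes and act in light signalling and freezing tolerance. The CCT motif is a short domain shared by CONSTANS, the pseudo-response regulators of the clock and other nuclear proteins. Transcripts of these kinds are known to cycle with the time of day, and the hour of harvest of each array is not stated in the labels used here.

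The study measured transcripts in shoot apices containing leaf primordia from plants of the Col-0 background, kept on soil under a long day of 16 hours light and 8 hours dark until 14 days of age. The groups were wild type, the as1-1 mutant of AS1, a MYB-domain protein gene, the as2-1 mutant of AS2, an LBD family gene whose product acts with AS1 in leaf development, and a line that overexpresses AS2. Each group had 1 array, 4 in all, so no value below has a replicate or an error between arrays, and precision is limited by this number. The promoter behind AS2 overexpression and the number of plants pooled for an array are not stated in the labels used here, a free-text description that speaks of embryos goes against the tissue label, and no probe set carried the names AS1 or AS2, so the targeted genes were not checked. Of the 13 shoot meristem and leaf primordium markers, 4 were named on the array. YAB3 and PHV, genes of leaf polarity, lay above the floor on all 4 arrays, while the stem cell gene CLV3 lay below it on all 4. YAB5, also of leaf polarity, lay above it on 3 arrays and below it, at 4.98, in the line overexpressing AS2. Of 7 flower markers 1 was named, AGL24, which lay above the floor on all 4 arrays. Of 6 root markers 1 was named, EXPA7, which lay below it on all 4. The floor is the 40th percentile of all scaled signals and is no detection call, so lying under it does not show absence. None of the 9 embryo and seed markers could be read.

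Signals are linear intensities per probe set after each array was put on a common scale, and the floor, under which signals were not told apart, was 42.9. All 16 signals of the 4 genes lay above it. COR27 had a scaled signal of 136 in wild type, 936 in as1-1, 669 in as2-1 and 940.3 in the line overexpressing AS2. AT4G33980 had a signal of 52.3 in wild type, 271 in as1-1, 157 in as2-1 and 269 in the line overexpressing AS2. AT1G07050 had a signal of 126 in wild type, 554 in as1-1, 395 in as2-1 and 515 in the line overexpressing AS2. All 3 genes thus had the same order of arrays at its low end, with wild type lowest and as2-1 next, and as1-1 and the AS2 overexpressing line close together at the top. GI had a signal of 609 in wild type, 605 in as1-1, 182 in as2-1 and 653 in the line overexpressing AS2. Its signals were close together on every array but that of as2-1. The deposited signals before scaling gave the same picture, with COR27 at 134, 953, 675.7 and 925.1 and GI at 602.3, 616.2, 183.6 and 642.4 on the arrays in the same order. In a bulk sample, fewer cells that express a gene and less of its RNA per cell cannot be told apart.

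**Figure D1:**
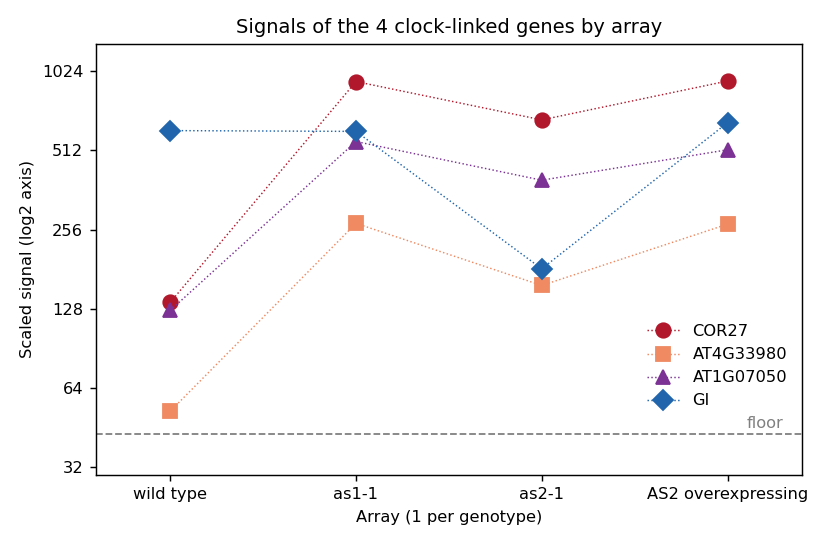
Scaled signal of the 4 genes (log2 axis) on the 4 arrays, 1 point per array; the dotted lines join the points of a gene and the dashed line is the floor of 42.9. COR27, AT4G33980 and AT1G07050 are lowest in wild type, and GI is lowest in as2-1 at 182.

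In as1-1 against wild type, COR27 was 6.90-fold higher, AT4G33980 5.18-fold and AT1G07050 4.38-fold. They were the 3 largest differences on the higher side among the 7108 genes above the floor on both arrays. GI was level, at a log2 difference of -0.01, and 97.6% of genes differed by more than it did. A gene was called where 2 arrays stood at least 2-fold apart, and 3 of the 4 genes were called higher in as1-1, where 1.42% of the 7744 genes compared were called higher and 2.87% in either direction.

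In as2-1 the same 3 genes were above wild type by less. COR27 was 4.94-fold higher there, AT1G07050 3.12-fold and AT4G33980 3.005-fold, which placed them second, eighth and ninth on the higher side among 7076 genes. AT4G33980 lost its call in as2-1, at a log2 difference of 0.29 or more, where the floor was set at the 60th percentile of all signals, above its wild type signal. GI was lower by a factor of 3.351 and ranked 11 on the lower side. Among the 7751 genes compared, 1.5% were called higher in as2-1, 1.78% lower and 3.28% in either direction. The split of 116 genes higher and 138 lower became 137 and 107 with centring on all probe sets. Green leaf markers also differed between the arrays. LHCB4.2, an antenna protein gene of photosystem II, was at 9332 in wild type, 3528 in as1-1, 1709 in as2-1 and 5949 in the line overexpressing AS2. LHCB4.1, of the same antenna, was at 10059, 7579, 6871 and 9352 on the arrays in that order, and RCA, the Rubisco activase gene, was at 9267, 4881, 5530.0 and 6873. The list's median log2 difference from wild type was -0.92 in as1-1, -0.74 in as2-1 and -0.43 in the line overexpressing AS2, in each the value of RCA. These medians depended on the scaling of the arrays. In the same order they were -0.59, -0.47 and -0.23 with quantile normalization, and -0.71, -0.63 and -0.40 with cyclic loess. The summed signal of the 3 green leaf markers named on the array, of 5 listed, was 28658 in wild type, 15988 in as1-1, 14110 in as2-1 and 22174 in the line overexpressing AS2, and all 3 (RCA, LHCB4.1 and LHCB4.2) stood above the floor on each array. The part of leaf tissue in the GI difference was not tested.

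In the AS2 overexpressing line against wild type, COR27 was 6.94-fold higher, AT4G33980 5.14-fold and AT1G07050 4.08-fold, again the 3 largest differences on the higher side, here among 7066 genes. GI had a log2 difference of 0.10. The background was lower in this comparison, with 0.71% of 7748 genes called higher and 1.91% in either direction. Its split of 55 genes higher and 93 lower became 90 and 62 with centring on all probe sets, which moved the median difference by 0.12 on the log2 scale. These 3 comparisons share the single wild type array, so the low signals of COR27, AT4G33980 and AT1G07050 on that 1 array enter all of them.

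Comparisons that leave wild type out show how far the other 3 arrays differed from each other. Between the AS2 overexpressing line and as1-1, COR27 differed by a log2 value of 0.01, AT4G33980 by -0.01, AT1G07050 by -0.10 and GI by 0.11. None of the 4 genes was called, where 2.93% of 7604 genes were, and more than 76% of the 7040 genes above the floor on both arrays differed by more than each of them. The signals of these 4 genes were thus nearly the same on the 2 arrays, and the sign of the differences of COR27 and AT4G33980 turned between scalings of the arrays.

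The as2-1 array stood below both of these for each of the 4 genes. Against as1-1 it was 1.40-fold lower for COR27, 1.72-fold for AT4G33980, 1.40-fold for AT1G07050 and 3.33-fold for GI. GI was the 1 gene of the 4 called, where 0.425% of 7538 genes were called lower in as2-1 and 0.73% in either direction, and it ranked second on the lower side. Of the 7119 genes above the floor on both arrays, 9.76% differed by more than COR27, 1.91% by more than AT4G33980 and 9.58% by more than AT1G07050. In the AS2 overexpressing line against as2-1, GI was 3.59-fold higher, the fourth on the higher side among 7024 genes, and was again the 1 gene called, where 1.04% of 7595 genes were called higher and 2.79% in either direction. The other genes were under 2-fold there, with COR27 at a log2 difference of 0.49, AT4G33980 at 0.77 and AT1G07050 at 0.38. With wild type left out, the highest signal over the lowest was 1.41-fold for COR27, 1.72-fold for AT4G33980, 1.40-fold for AT1G07050 and 3.59-fold for GI.

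**Figure D2:**
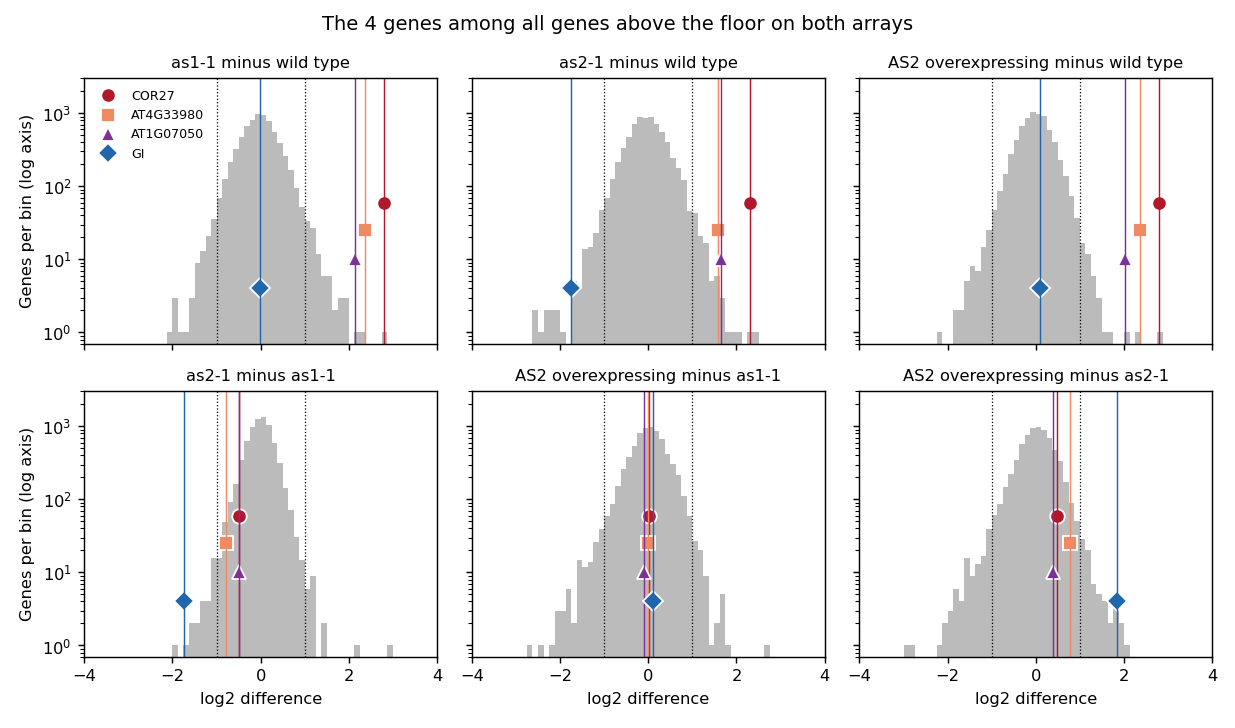
Number of genes (log axis) by log2 difference for each pair of arrays, over genes above the floor on both, with the 4 genes as coloured lines and markers and dotted lines at 2-fold. COR27, AT4G33980 and AT1G07050 rank 1, 2 and 3 on the higher side in as1-1 and in the AS2 overexpressing line against wild type. In as2-1 against wild type they rank 2, 9 and 8, and GI ranks 11 on the lower side. GI ranks 2 on the lower side in as2-1 against as1-1, and 4 on the higher side in the AS2 overexpressing line against as2-1.

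The 2 patterns were then counted over all genes. Among 7614 genes, 17 (0.223%) stood at least 2-fold above wild type on each of the other arrays. Of these 17, 15 lay above the floor on all 4 arrays. Ordered by the smallest of the 3 log2 differences, COR27 (2.30), AT1G07050 (1.64) and AT4G33980 (1.59) came first of the 15, followed by scpl35, a serine carboxypeptidase-like gene (1.41), and the gene just inside the 2-fold limit was AT3G09720 at 1.02. AT2G23910 and AT5G17760 had wild type signals below the floor. Their smallest differences were 1.40 or more and 1.19 or more, so these genes cannot be placed in this order and may stand above any of the 15. The second pattern, at least 2-fold lower in as2-1 than on each other array, held for 7 of 7411 genes (0.0945%). GI stood furthest below the nearest of the other arrays, at a log2 difference of -1.73, before AT3G28220 (-1.38), AT5G60840 (-1.30) and AT2G30600 (-1.10), and LHCB4.2 (-1.05) was the gene just inside the limit. AT5G60840 had an as2-1 signal of 43.6, just above the floor.

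Few other clock genes could be read. The annotation used gave no gene to 8730 of the 22746 probe sets, so a clock gene not named here may still have a probe set. Of 14 morning clock genes 1 was named on the array, AT5G52660, at 143 in wild type, 118 in as1-1, 83 in as2-1 and 102 in the line overexpressing AS2. Of 14 genes in the evening clock list 1 was named, TIC (TIME FOR COFFEE), a regulator of the clock. TIC was at 529 in wild type, 578 in as1-1, 479 in as2-1 and 586 in the line overexpressing AS2, and its evening label was not checked. AT5G52660 and TIC both had their lowest signal in as2-1, and neither reached 2-fold in any comparison. With 1 gene per list, they do not show how morning-phased or evening-phased transcripts stood. Of 18 further clock-linked genes, a list drawn up after other values had been seen, 5 were named and 0 of these differed 2-fold in any comparison, a count near the background of 0.73% to 3.28% of all genes per comparison. Among them XCT (XAP5 CIRCADIAN TIMEKEEPER) had log2 differences from wild type of -0.47 on both mutant arrays and -0.60 on the AS2 overexpressing array. LIP1 (Light Insensitive Period1) had -0.13, -0.25 and 0.03, and STIPL1 (SPLICEOSOMAL TIMEKEEPER LOCUS1) had -0.11, -0.02 and -0.02. FIO1 (FIONA1) had -0.60, -0.22 and 0.15, and AT4G01280 had -0.23, -0.51 and -0.79. Of these 5 genes only LIP1 also had its lowest signal in as2-1. XCT and AT4G01280 had theirs in the line overexpressing AS2, and FIO1 and STIPL1 in as1-1. The medians of these 5 genes were -0.23, -0.25 and -0.02, where all genes compared had medians of -0.03, -0.04 and -0.02.

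The strong differences of AT1G07050 were set beside other genes of the CCT and B-box families, also listed after other values had been seen. Of 30 listed genes 10 were named on the array and 6 lay above the floor on at least 1 array. None of the 6 was called higher than wild type on any array, which is near the background of 0.71% to 1.5% of all genes and so says nothing particular about the family. CIL was 2.31-fold lower in as2-1 than in wild type, at 74.7 against 172, and was at 146 in as1-1 and 277 in the AS2 overexpressing line. Like GI, it had its lowest signal in as2-1. In the AS2 overexpressing line neither gene was 2-fold from wild type, with log2 differences of 0.69 for CIL and 0.10 for GI. CIL stood 3.71-fold higher in that line than in as2-1. With the floor at the 60th percentile its as2-1 signal lay below the floor, and its log2 difference from wild type was -0.42 as a bound. AT5G14370 had log2 differences from wild type of 0.78, 0.48 and 0.20 on the as1-1, as2-1 and AS2 overexpressing arrays, and AT4G27900 had 0.75, 0.26 and 0.46. AT5G53420 and AT2G47890 lay between -0.29 and 0.41. AT1G63820 was at 68.1 in wild type and below the floor on both mutant arrays. In the photoperiodic flowering list 1 of 14 genes was named, AT1G69570, and in the light signalling list 1 of 16, HYH, a homolog of the light signalling gene HY5. Both lay below the floor on all 4 arrays.

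COR27 takes its name from cold, and 4 of 14 cold genes were named: the chloroplast protein genes COR15A and COR15B and the dehydrin genes COR47 and LTI30. In as1-1, 3 of the 4 were called higher than wild type, COR15A at 2.997-fold, COR47 at 2.34-fold and LTI30 at 2.19-fold. Of all genes compared, 1.42% were called higher there. COR15B had a log2 difference of 0.97 and passed 2-fold, at 1.02 to 1.03, under the 4 other scalings of the arrays, while LTI30 came to just under 2-fold, at 0.996 or more, with the floor at the 60th percentile. In the AS2 overexpressing line against wild type, 0 of the 4 were called in either direction, where 1.91% of all genes were, so a count of 0 among 4 is near that background. Their signals there were 321 for COR15A against 399 in wild type, 950.1 for COR47 against 1279, 109 for LTI30 against 117 and 1079 for COR15B against 659. In as2-1 also 0 of the 4 were called, against a background of 3.28%, and the list had a median log2 difference of 0.31, beside 1.18 in as1-1 and -0.21 in the AS2 overexpressing line. Between the AS2 overexpressing line and as1-1, the cold list had a median of -1.44, with 3 of 4 genes called lower. Of the 7604 genes compared, 148 were called lower and 2.93% in either direction. The list rests on 4 of 14 genes, and the part of a cold response in the COR27 differences was not tested.

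**Figure D3:**
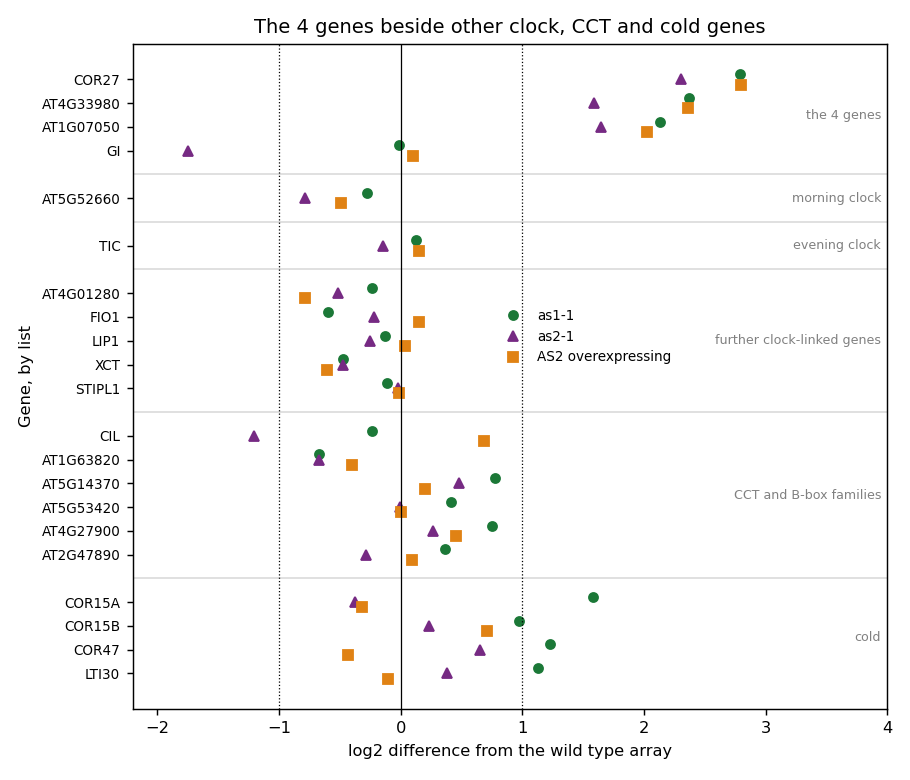
Log2 difference from the wild type array for the 4 genes and for the other clock, CCT and cold genes above the floor on at least 1 array, with 1 marker per line and dotted lines at 2-fold. COR27, AT4G33980 and AT1G07050 stand to the right in all 3 lines, while the cold genes COR15A, COR47 and LTI30 pass 2-fold in as1-1 alone.

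Genes were then ranked by the likeness of their pattern over the 4 arrays, as the Euclidean distance between log2 signals after each gene was centred on its own mean, over the 6815 other genes that every array showed above the floor. COR27, AT4G33980 and AT1G07050 were chosen with their low wild type signals in view, so small distances among them follow from the choice. AT4G33980 was at a distance of 0.32 from AT1G07050 and 0.51 from COR27, and COR27 was at 0.61 from AT1G07050. COR27 and AT4G33980 each lay closer to the other 2 of these 3 genes than to any of the 6815 genes. AT1G07050 lay nearest to AT4G33980. Outside the 4, AT2G32220 was nearest to each of the 3, at 1.11 from COR27, 0.88 from AT4G33980 and 0.57 from AT1G07050, closer to the last than COR27 was. AT2G32220 had signals of 60.7 in wild type, 195 in as1-1, 167 in as2-1 and 146 in the line overexpressing AS2, and so, unlike the 3, stood higher in as2-1 than in the overexpressing line. AT2G33170, AT2G18900 and AT4G30800 were also among the 5 nearest genes of each of the 3. The remaining places went to scpl35 for COR27 and AT1G07050 and to AT4G32340 for AT4G33980. GI lay at least 2.42 from each of the 3. Its nearest genes were AT5G60840 (0.41), AT2G30600 (0.55), AT2G32150 (0.62), AT4G27450 (0.66) and AT2G36200 (0.69). The as2-1 signal of AT5G60840, at 43.6, lay just above the floor. AT2G30600 had signals of 625 in wild type, 656 in as1-1, 227 in as2-1 and 486 in the line overexpressing AS2. The members of this ranking changed with the floor: with the floor at the 25th percentile of all signals 0 of the 5 nearest genes of COR27, AT4G33980 and AT1G07050 and 1 of the 5 of GI were kept. With no floor 0 of the 5 were kept for each of the 4 genes, and with the floor at the 60th percentile 2 of the 5. Whether genes outside the 4 lay closer to COR27 and AT4G33980 in these settings than the other genes of the 4 was not examined.

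**Figure D4:**
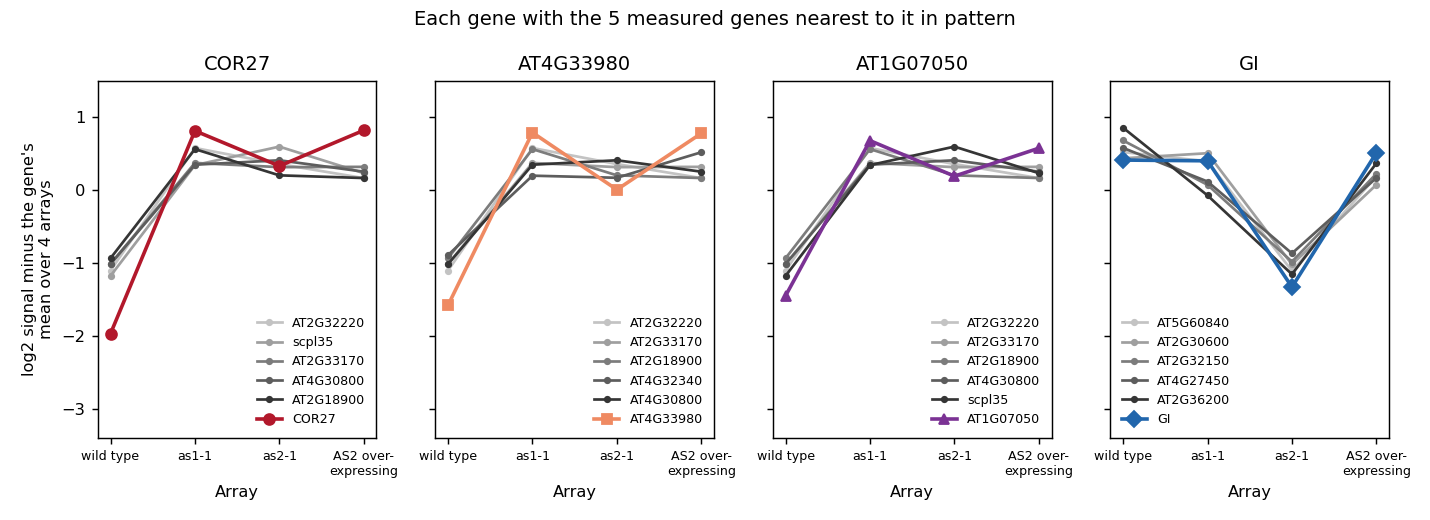
Log2 signal of each of the 4 genes (coloured) and of the 5 genes nearest to it in pattern (grey), each minus its own mean over the 4 arrays. The genes nearest to COR27 and AT4G33980 have a smaller gap between wild type and the other arrays than these genes have themselves.

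The genes next to the 4 on the chromosome were also read, by gene order in the TAIR10.1 assembly, with 5 protein-coding genes on each side. COR27 lies on chromosome 5, AT4G33980 on chromosome 4, and AT1G07050 and GI on chromosome 1. Of the 10 neighbours of each, those with a named probe set and a signal above the floor on at least 1 array numbered 3 for COR27, 4 for AT4G33980, 6 for AT1G07050 and 4 for GI. Of these 17 neighbours, 1 was called in 1 comparison with wild type, where 1.91% to 3.28% of all genes were called in each, so the count is near the background. AT4G33985, the gene next to AT4G33980, was at 42.9 in wild type, 73.4 in as1-1, 91.8 in as2-1 and 59.2 in the line overexpressing AS2. Its log2 difference in as2-1 was 1.10, its wild type signal lay at the floor, and its highest signal was in as2-1, where that of AT4G33980 was lower than in as1-1 and the AS2 overexpressing line. AT1G07040, a gene next to AT1G07050, had signals between 183 and 225 on the 4 arrays.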

How the data were processed

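The authors deposited a linear signal intensity per probe set for 22746 probe sets on 4 Affymetrix arrays, prepared from biotinylated cRNA per the labels' protocols. The software behind the signals and the array's genome build are not given in the sources used here. Trimmed mean signals (2% off each end) ran from 198.4 to 198.5 and medians from 75.7 to 82.5.

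Log2 signals (0 set to 0.1) were centred per array on the median of the brighter 50% of probe sets by mean level, and values under the 40th percentile were raised to it. A difference against an array at the floor was a lower bound. A platform annotation gave 13513 probe sets 1 gene, 503 several and 8730 none, and names were updated through RefSeq (TAIR10.1). Where a gene had several probe sets, the brightest on average was used. Of the 4 probe sets of the genes described, 0 carried a suffix for shared probes. No test was possible with 1 array a group, and a difference of 2-fold was called. Genes named by rule were the 4, listed genes with a probe set, and the 5 nearest in pattern. AT2G23910, AT5G17760, AT3G09720, AT3G28220, AT4G33985 and AT1G07040 were named after their values were seen. The genes and lists were chosen with earlier results of these data known. The list of clock-linked genes beyond the core and that of the CCT and B-box families were added after values had been seen, and genes counted by pattern and chromosomal neighbours were chosen likewise. Python 3.11.15, numpy 2.4.6, pandas 2.3.3, R 4.3.3 and limma 3.58.1 were used.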

Additional observations from a re-analysis of the deposited data

How the results depend on the processing

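Centring on all probe sets, no centring, quantile normalization, cyclic loess and other floors gave 168 further values of the 24 differences of the 4 genes, of which 165 stayed within 1.5-fold and on the same side of 2-fold, 3 moved and 0 reversed. The 3 were those of AT4G33980 against wild type with the floor at the 60th percentile, a signal of 128.5, which lies above its wild type signal: the lower bounds on the log2 scale were 1.08, 0.29 and 1.06 on the as1-1, as2-1 and AS2 overexpressing arrays. The 24 values at the 25th percentile floor and the 24 with no floor could not change. All 16 signals of the 4 genes lay above the main floor. At the 60th percentile floor only the differences of AT4G33980 and AT1G07050 from wild type could change. These settings therefore say little about how stable the other differences are. Across settings COR27 stayed between 4.94-fold and 7.52-fold above wild type on the 3 arrays, and GI between log2 differences of -1.75 and -1.68 in as2-1. Counts of genes at least 2-fold apart moved with the floor. In the order as1-1, as2-1 and AS2 overexpressing against wild type, then as2-1 against as1-1, AS2 overexpressing against as1-1 and against as2-1, they were 660, 729, 542, 164, 519 and 510 for a 25th percentile floor, 97, 116, 43, 20, 102 and 100 for one at the 60th, and 3177, 3259, 2724, 2508, 2956 and 2925 with no floor. Genes above wild type on the 3 other arrays numbered 43, 6 and 325 in these settings, and genes lowest in as2-1 numbered 19, 4 and 654. COR27, AT1G07050 and GI remained among them, and AT4G33980 was lost at the 60th percentile. The morning clock list, of 1 gene, lay below the floor in as2-1 at the 60th percentile, which left only a bound of -0.15. With no floor the CCT and B-box list, then of 10 genes, had a median log2 difference of -0.56 in as1-1 against wild type. No paired analysis was possible because each group has 1 array, and no array could be left out of a comparison. Signals near the floor limit AT4G33980 most, whose wild type signal was 1.22 times the floor.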
